A study of Mus musculus with 15 samples.

Results

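The genes described here encode enzymes and protein complexes that write, erase or move histone marks and nucleosomes, together with the Mediator complex, which carries signals from transcription factors to RNA polymerase II. They were chosen by gene symbol alone: a symbol that begins with Kmt, Setd, Kdm, Hdac or Smarc, or that is Chd or Med followed by a number. Of the 19938 genes with a probe set of 1 symbol, 100 met this rule, which gave 8 Kmt, 10 Setd, 18 Kdm, 11 Hdac, 13 Smarc, 10 Chd and 30 Med genes. Each gene is represented by its brightest probe set over all arrays, and no member was left out of any test for low signal.

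The arrays hold RNA of the right hippocampus from male pups of the C57BL/6 mouse strain at postnatal day 9, with 3 arrays in each of 5 groups. Controls (CC) were untreated. From postnatal day 5 on, the 2 mildly stressed groups were given saline (MSS) or the opioid morphine (MSM), and the 2 severely stressed groups likewise saline (SSS) or morphine (SSM). The kind of stress and the dose are unstated in the labels. No allele or transgene is named for any group. The labels do not say which pup or litter each array came from, so a p-value rests on the spread among the arrays, whatever its source.

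Histone methyltransferases, among them many but not all Kmt and Setd proteins, add methyl groups to lysines, and Kdm demethylases remove them. Histone deacetylases (Hdac) take acetyl groups off, which generally goes with lower transcription. Most Smarc and Chd proteins are enzymes or subunits of remodellers that use ATP to slide or evict nucleosomes. In the brain many of these genes are dosage-sensitive: in people, loss-of-function variants of KMT2A, KMT2D, CHD7, CHD8 or MED13L, for example, are tied to disorders of development.

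All values are log2 intensities, and a difference is a log2 difference with the standard error (SE) from limma, fitted over all 15 arrays. A value called relative has the median of all genes subtracted. Intensities of different probe sets depend on their probes and do not rank genes by the amount of RNA. In whole tissue, fewer cells of a type and less RNA per cell cannot be told apart.

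The promoters of 4 members, chosen after their values were seen, are shown as examples of the 2 directions described below: Med12 and Kmt2a had lower means after severe than after mild stress, and Smarcb1 and Med19 had higher means. Each window runs from 250 bases before to 50 bases after the RefSeq start of the gene (GRCm38.p6), written 5′ to 3′ as the table gives it, with motif matches on either strand in capitals. The windows lie at chrX:101273841-101274140 on the plus strand (Med12), chr9:44881240-44881539 on the minus strand (Kmt2a), chr10:75921565-75921864 on the minus strand (Smarcb1) and chr2:84678152-84678451 on the plus strand (Med19).
Med12: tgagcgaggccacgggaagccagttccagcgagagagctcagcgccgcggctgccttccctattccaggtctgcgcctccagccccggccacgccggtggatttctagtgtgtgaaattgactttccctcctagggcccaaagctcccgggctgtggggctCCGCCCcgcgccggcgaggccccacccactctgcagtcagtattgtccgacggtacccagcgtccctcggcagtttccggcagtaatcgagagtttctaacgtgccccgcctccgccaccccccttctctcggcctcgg
Kmt2a: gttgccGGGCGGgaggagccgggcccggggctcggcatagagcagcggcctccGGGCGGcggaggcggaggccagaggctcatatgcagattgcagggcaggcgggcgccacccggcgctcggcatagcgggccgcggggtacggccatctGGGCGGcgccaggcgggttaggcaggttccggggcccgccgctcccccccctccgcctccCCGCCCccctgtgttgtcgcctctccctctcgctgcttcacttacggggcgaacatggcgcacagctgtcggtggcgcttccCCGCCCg
Smarcb1: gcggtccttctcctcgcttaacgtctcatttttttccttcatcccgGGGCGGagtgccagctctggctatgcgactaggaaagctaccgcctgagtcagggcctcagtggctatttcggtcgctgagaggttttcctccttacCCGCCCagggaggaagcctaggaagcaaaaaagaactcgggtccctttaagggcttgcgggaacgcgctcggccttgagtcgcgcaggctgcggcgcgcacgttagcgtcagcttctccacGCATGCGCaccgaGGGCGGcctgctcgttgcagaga
Med19: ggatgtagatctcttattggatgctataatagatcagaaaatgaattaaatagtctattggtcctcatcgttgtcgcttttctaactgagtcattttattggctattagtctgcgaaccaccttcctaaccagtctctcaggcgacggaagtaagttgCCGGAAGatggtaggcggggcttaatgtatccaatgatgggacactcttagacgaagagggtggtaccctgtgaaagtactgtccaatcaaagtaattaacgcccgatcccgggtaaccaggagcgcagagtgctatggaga
The capitals mark the GC box GGGCGG (1 match in Med12, 5 in Kmt2a and 3 in Smarcb1), the NRF1 core GCGCATGC (1 in Smarcb1) and the ETS motif CCGGAAG (1 in Med19). The other motifs searched, the E-box CACGTG, the CRE TGACGTCA, the half-site AGAACA of the glucocorticoid receptor and the TATA box TATAAA, had no match in these 4 windows.

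Of the members, 80 had a window in the table, 102 windows in all. The GC box stood in 65.7% of the members' windows and in 35.7% of all 32851 windows. The ETS motif stood in 17.6% against 8.86%, the NRF1 core in 7.84% against 2.71%, the E-box in 5.88% against 7.15%, the CRE in 0.98% against 1.79%, the glucocorticoid receptor half-site in 13.7% against 19%, and the TATA box in 6.86% against 13.6%. The members' windows had a median G and C content of 61.2% and a median of 22 CpG dinucleotides, against 52.7% and 7 in all windows. Short motifs rich in G and C are met more often in such sequence, and a match is a description of letters, not of binding.

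Over the 15 arrays the members' mean intensities ranged from 4.76 (Setdb2) to 10.33 (Hdac3), and 94 of the 100 had a mean of at least 6, a share that 53.1% of all genes reached. The dimmest in each family were Setdb2 and Setd4 (5.61), Kdm4d (5.31) and Kdm6a (6.32), Hdac7 (6.73) and Hdac8 (6.78), Smarcd2 (6.41) and Smarcal1 (7.99), Chd1l (6.28) and Chd1 (7.15), Med30 (5.48) and Med18 (5.62), and Kmt2d (7.43) and Kmt2c (7.52). The brightest were Hdac3 and Hdac2 (10.19), Smarcc2 (10.11) and Smarca4 (9.73), Chd3 (10.01) and Chd4 (9.65), Kdm5b (9.45) and Kdm4a (9.44), Med10 (9.43) and Med13 (9.04), Setd3 (9.14) and Setd5 (8.38), and Kmt2e (8.72) and Kmt5a (8.53).

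Pairwise correlations between arrays over all genes were 0.990 to 0.998. Replicate 3 of SSM stood apart: its genes lay a median of 0.15 above their own means over the 15 arrays, whereas the other 14 arrays lay between -0.020 and -0.003, so family medians, counts of members and the genes that lead each comparison are also given without it. The hippocampal marker Prox1 was lowest on SSM replicate 1 (7.81) and MSM replicate 3 (8.08). Neurod6 was lowest on MSM replicate 3 (7.36) and SSM replicate 1 (8.69), as was Slc17a7 (10.21 and 10.81). The lowest values on the remaining arrays were 8.55 for Prox1, 9.10 for Neurod6 and 10.98 for Slc17a7. Replicate 3 of MSM had the highest value of the thalamic gene Tcf7l2 (9.85), and replicate 1 of SSM the highest of the striatal gene Penk (11.40). The titles carry an SS number of unstated meaning, which is 12 for CC, 11 for both mild groups and 8 to 10 for the severe groups. Stress level and this number therefore cannot be told apart, and only MSM against MSS lies within 1 number.

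No member passed the threshold, an adjusted p under 0.05 (limma, Benjamini-Hochberg over 19938 genes), in any of 11 comparisons or in the F-test over the 5 groups. Of all genes, 0.0100% (2 genes) passed it in severe against mild stress and 0% in each of the others. The members' smallest adjusted p was 0.0919, for Med12 in severe against mild stress. At an unadjusted p under 0.05 in the F-test, which is no call, 20 members stood against 7.24% of all genes. By family these were 7 Med, 5 Chd, 4 Kmt, 2 Hdac, 1 Kdm, 1 Smarc and 0 Setd genes. The members are brighter than all genes as a set. For the F-test, no count is given among brighter genes or without SSM replicate 3. The smallest F-test p-values were 0.00101 (Med12), 0.00341 (Med19), 0.0038 (Chd9), 0.00922 (Hdac7), 0.0121 (Kmt2b), 0.0133 (Smarcb1), 0.0139 (Chd2), 0.0177 (Kmt2a), 0.0204 (Kdm4d) and 0.0266 (Hdac2), with adjusted values of 0.54 or more. The Setd genes reached 0.172 (Setd5) and 0.218 (Setd4), Kdm7a 0.113 and Smarca5 0.0746.

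**Figure D1:**
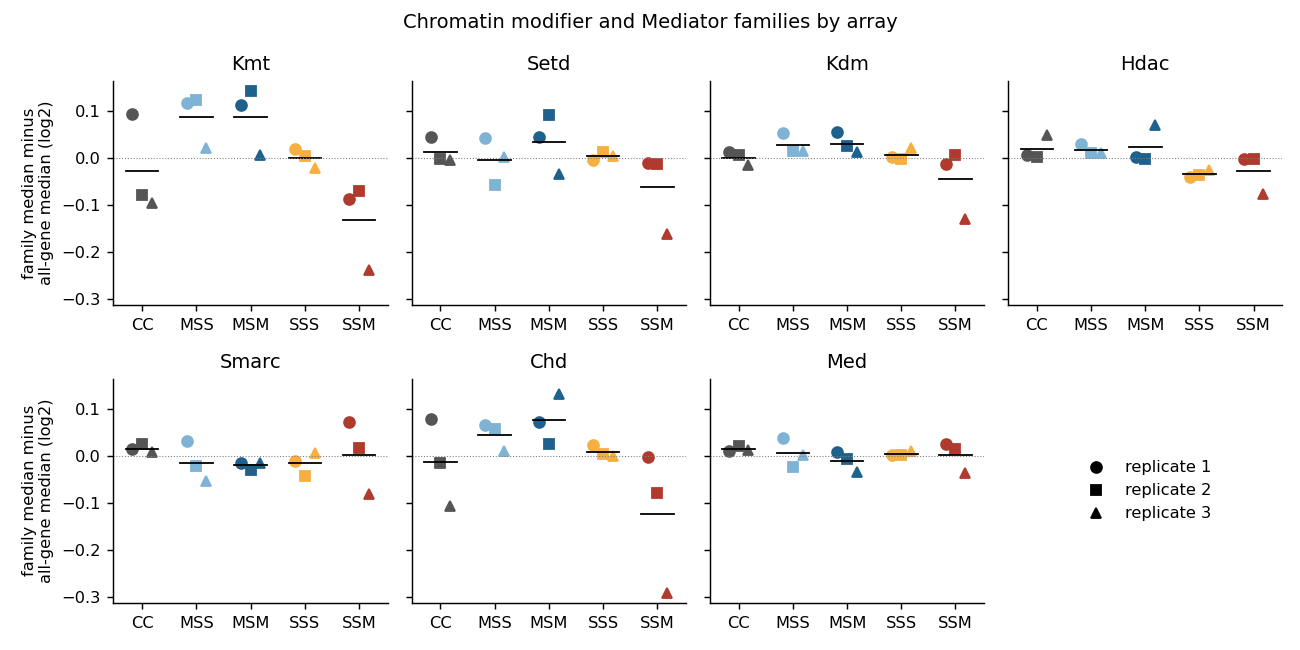
Median of each family on each array (points; y axis, log2 deviation of the genes from their own mean over 15 arrays, minus the same median over all genes) by group, with the mean of 3 arrays as a line. Kmt is highest in the 2 mild groups (means 0.087 and 0.087) and lowest in SSM (-0.131), and SSM replicate 3 is the lowest array for all 7 families.

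Across the groups the Kmt and Chd families spread most and the Mediator family least. The Kmt value was -0.026 ± 0.104 (SD, n = 3 arrays) in CC. It was 0.087 ± 0.058 in MSS and 0.087 ± 0.071 in MSM, against 0.001 ± 0.020 in SSS and -0.131 ± 0.092 in SSM. The SSM arrays all lay below the MSS, MSM and SSS arrays, but 2 of the 3 CC arrays (-0.078 and -0.094) lay among them. The Chd value was -0.014 ± 0.092 in CC, 0.045 ± 0.030 in MSS and 0.076 ± 0.053 in MSM, against 0.009 ± 0.012 in SSS and -0.124 ± 0.149 in SSM, with -0.291 on SSM replicate 3. The Med value stayed between -0.011 and 0.014 in the 5 group means.

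The comparison of severe with mild stress, averaged over saline and morphine (6 against 6 arrays), asks whether the severity of stress goes with other levels of these genes. The lowest family medians relative to all genes were those of the Kmt methyltransferases (-0.18) and the Chd remodellers (-0.13). Below the median of all genes lay 7 of 8 Kmt and 7 of 10 Chd genes. The Setd, Kdm and Hdac medians were nearer 0 (-0.06, -0.05 and -0.05), with 7 of 10, 16 of 18 and 9 of 11 genes below. Smarc and Med had medians of 0.03 and 0.02, with 5 of 13 and 13 of 30 genes below. None of these medians carries a test. Without SSM replicate 3 the Kmt and Chd medians were -0.13 and -0.09, Setd -0.03, Kdm -0.02, Hdac -0.04, Smarc 0.06 and Med 0.03. All genes had a median difference of 0.04, and 64 of the 100 members lay below it. At an unadjusted p under 0.05, 12 members were lower against 2.80% of all genes, and 9 were higher against 9.28%. The second share is close to that of all genes, which are dimmer than the members as a set. Among the 10590 genes with a mean of at least 6, 94 were members. Of these members 12 were lower against 3.78% of such genes, and 10 were higher against 14.6%. Over all genes, leaving out SSM replicate 3 gave 10 lower members against 4.68% and 6 higher against 5.99%.

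**Figure D2:**
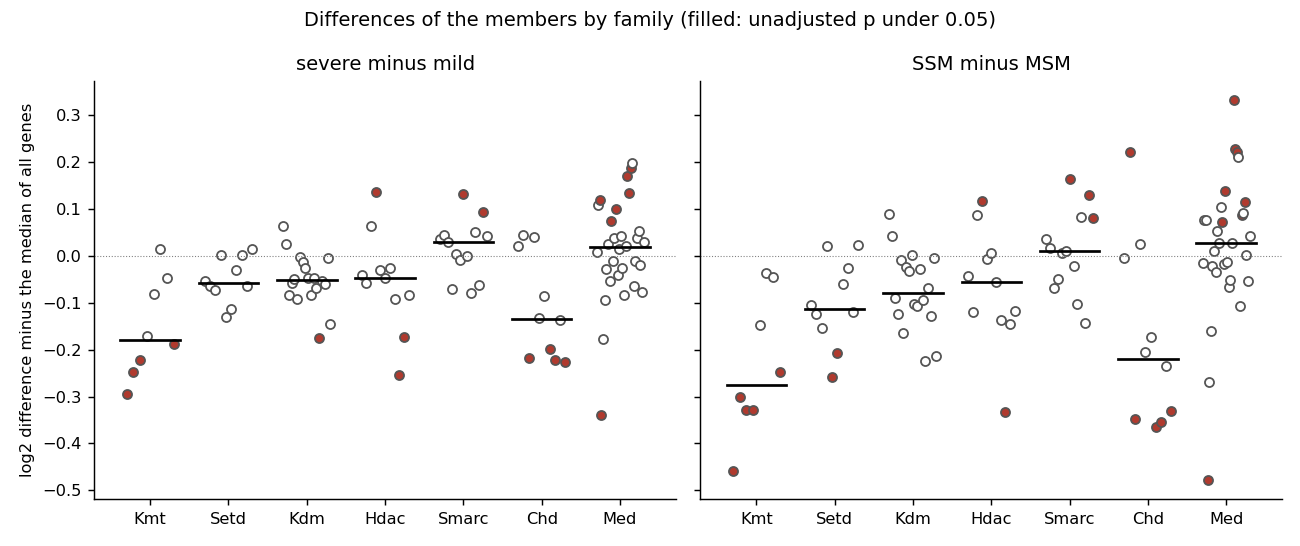
Log2 difference of each member minus the median of all genes (points; filled at an unadjusted p under 0.05) by family, for severe minus mild stress and for SSM minus MSM, with the family median as a line. The Kmt medians are -0.18 and -0.27, the Chd medians -0.13 and -0.22, and the Med medians 0.02 and 0.03.

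In a description chosen after the values were seen, all 6 severe arrays lay below all 6 mild arrays for 5 members (Med12, Chd9, Kmt2b, Hdac7 and Kmt5c), against 0.411% of all genes. No member had all severe arrays above the mild ones, against 0.687% of all genes. Leaving out SSM replicate 3 cannot undo such a separation, so that the 5 stayed so was fixed in advance. The share of all genes was then 0.637%. With quantile normalization Chd4 took the place of Hdac7 among the 5 (0.582% of all genes), and with each array shifted by the median deviation of its genes 4 were left, without Hdac7 (0.677%). With each array centred on its own median, 0 members had all severe arrays below the mild ones, against 0.145% of all genes. Med19 and Smarcb1 then had all of them above, which is 2 of 100 members against 2.35% of all genes.

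Among the writers, all 5 Kmt2 genes lay below the median of all genes in severe against mild stress, with a median of -0.22 relative to it (-0.19 without SSM replicate 3). Kmt2a to Kmt2d methylate lysine 4 of histone H3 at promoters and enhancers. The 5 are a set by symbol, which is why Kmt2e is among them. Other writers of this mark, Setd1a and Setd1b, are counted with Setd. Kmt2b, which acts mainly at promoters, read 8.04, 7.98 and 7.96 on the MSS arrays and 7.99, 7.99 and 7.93 on the MSM arrays, against 7.85, 7.78 and 7.81 on the SSS arrays and 7.65, 7.72 and 7.82 on the SSM arrays. The severe arrays were all lower than the mild ones, while the CC arrays (8.07, 7.83 and 7.77) spanned both. Its difference was -0.21 (SE 0.051, adjusted p 0.121).

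Kmt2a, the founding MLL gene, read 8.36, 8.28 and 8.27 on the MSS arrays and 8.28, 8.45 and 8.22 on the MSM arrays, against 8.37, 8.08 and 8.07 on the SSS arrays and 7.81, 8.07 and 7.88 on the SSM arrays. SSS replicate 1 was as high as the mild arrays, so the groups overlap. The difference was -0.26 (SE 0.078, adjusted p 0.215). Its promoter window, printed above, is the richest of the 4 in GC boxes. The CC values of Kmt2a were 8.36, 8.07 and 7.93.

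Kmt2c and Kmt2d, which act mainly at enhancers, had differences of -0.19 (SE 0.083, adjusted p 0.392) and -0.14 (SE 0.077, adjusted p 0.502), and Kmt2e one of -0.05 (SE 0.043, adjusted p 0.699). The Kmt5 genes methylate lysine 20 of histone H4. Kmt5c, which adds the second and the last methyl group there, read 8.06, 8.02 and 7.96 on the MSS arrays and 8.01, 8.05 and 8.04 on the MSM arrays, against 7.80, 7.96 and 7.93 on the SSS arrays and 7.95, 7.74 and 7.86 on the SSM arrays, a difference of -0.15 (SE 0.046, adjusted p 0.215). The other 2 Kmt5 genes lay within 0.05 of the median of all genes. Of the 10 Setd genes, 7 lay below the median of all genes and 3 above, and 0 reached an unadjusted p under 0.05. The lowest was Setd4 (-0.13 relative to the median), at a dim signal, followed by Setd5 (-0.11).

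Among the erasers, the 2 flavin-dependent enzymes and the Jumonji enzymes lay on opposite sides of the median of all genes. Kdm1a, which removes methyl groups from lysine 4 of histone H3, was at 0.06 relative to it and its relative Kdm1b at 0.03. All 16 Jumonji genes lay below it, with a median of -0.06 and a range from -0.17 to -0.0027. Without SSM replicate 3 this held for 13 of 16. Only Kdm5d, a demethylase encoded on the Y chromosome, reached an unadjusted p under 0.05 among the 18 Kdm genes, with -0.14 (SE 0.064, adjusted p 0.406). The median SE of a member in this comparison was 0.053.

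Among the deacetylases, Hdac7 and Hdac2 stood on opposite sides. Hdac7, a class IIa enzyme that shuttles between nucleus and cytoplasm, read 6.89, 6.79 and 6.79 on the MSS arrays and 6.89, 6.77 and 6.78 on the MSM arrays, against 6.55, 6.77 and 6.67 on the SSS arrays and 6.50, 6.43 and 6.71 on the SSM arrays. The difference was -0.22 (SE 0.054, adjusted p 0.133), and the highest severe array lay just below the lowest mild one. Hdac2, the class I enzyme best known in the brain as a brake on synaptic genes, read 10.02, 10.19 and 9.93 on the MSS arrays and 10.20, 10.10 and 10.15 on the MSM arrays, against 10.23, 10.15 and 10.26 on the SSS arrays and 10.38, 10.20 and 10.41 on the SSM arrays. The groups overlap, the difference was 0.17 (SE 0.053, adjusted p 0.228), and the CC arrays (10.15, 10.25 and 10.27) lay with the severe ones. Hdac8, another class I enzyme, was at -0.14 (SE 0.052, adjusted p 0.316).

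Of the Smarc genes, which encode subunits of BAF and related remodellers, 8 of 13 lay above the median of all genes. Smarcb1, a core BAF subunit, read 8.97, 9.03 and 9.13 on the MSS arrays and 9.13, 9.00 and 8.97 on the MSM arrays, against 9.15, 9.19 and 9.11 on the SSS arrays and 9.24, 9.24 and 9.31 on the SSM arrays. All severe arrays but SSS replicate 3 were above every mild array, and the difference was 0.17 (SE 0.043, adjusted p 0.15). Smarcd3, another BAF subunit, followed with 0.13 (SE 0.058, adjusted p 0.392). The ATPases of the complex, Smarca2 and Smarca4, lay within 0.05 of the median of all genes.

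In the Chd family, the subgroup Chd6 to Chd9 lay furthest below, with 4 of 4 genes below the median of all genes and a median of -0.21 (-0.16 without SSM replicate 3). Chd9 read 8.22, 8.26 and 8.19 on the MSS arrays and 8.18, 8.25 and 8.38 on the MSM arrays, against 8.15, 8.05 and 8.12 on the SSS arrays and 7.96, 8.01 and 8.04 on the SSM arrays. No severe array reached a mild one, and the difference was -0.19 (SE 0.042, adjusted p 0.107). The CC arrays (8.17, 8.12 and 8.09) lay between the mild and the SSM arrays. Chd7, which is needed for neural crest and neural progenitor genes, was at -0.19 (SE 0.059, adjusted p 0.232). All 30 of its probe sets were below 0 (-0.28 to -0.0052), with a mean of -0.15. These probe sets were read on the same arrays and are not independent. Chd2 was at -0.18 (SE 0.056, adjusted p 0.229), Chd6 at -0.16 (SE 0.059, adjusted p 0.3) and Chd8 at -0.10 (SE 0.059, adjusted p 0.514). Chd1, Chd3 and Chd1l lay above the median of all genes, at 0.02, 0.04 and 0.04 relative to it.

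**Figure D3:**
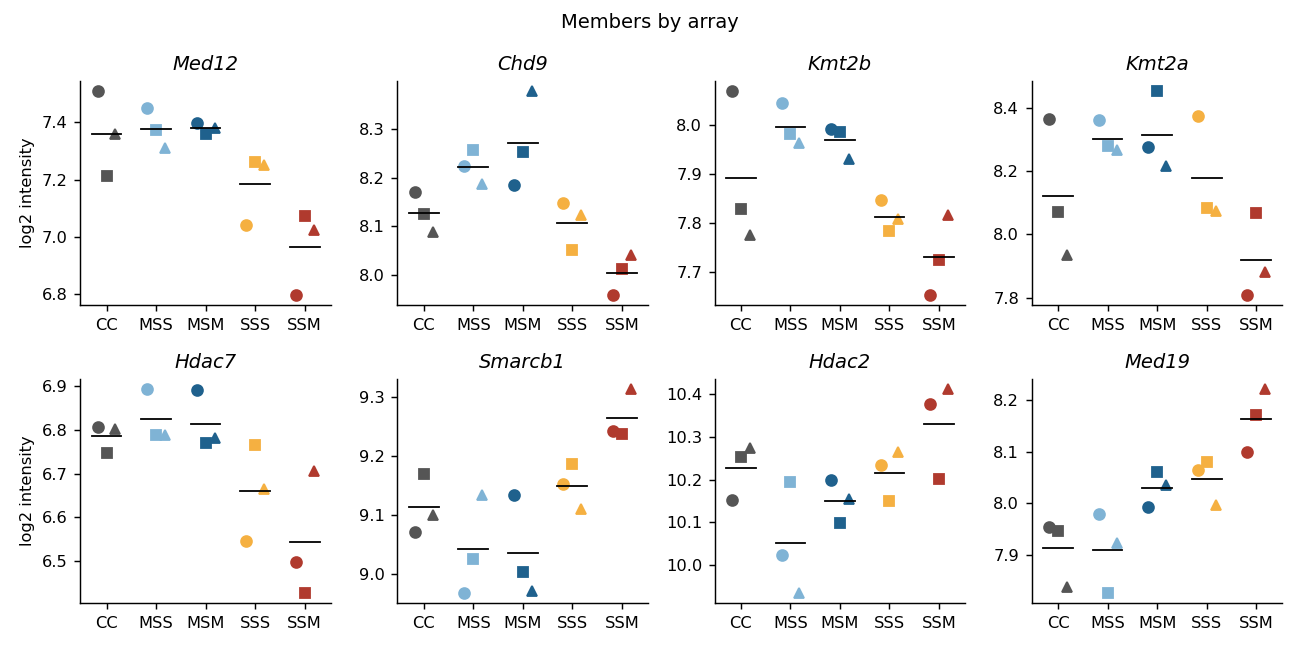
Log2 intensity of 8 members on each array by group (circles, squares and triangles are replicates 1, 2 and 3), with the mean of 3 arrays as a line. Each y axis has its own range and does not start at 0. Med12, Chd9, Kmt2b and Hdac7 are lower on all severe than on all mild arrays, and Smarcb1, Hdac2 and Med19 have their highest means in SSM (9.26, 10.33 and 8.16).

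The Mediator genes are given by the module assigned to them here, and differences between modules were not tested. The assignment does not come from these data, and other sources may place some genes, such as Med19, Med27 and Med28, elsewhere. Mediator binds the polymerase through its head and middle, transcription factors mostly through its tail, and a separable kinase module blocks or tunes that contact. The 4 kinase module genes all lay below the median of all genes, with a median of -0.14 (-0.10, and 3 of 4, without SSM replicate 3). The genes assigned to the head lay above it in 8 of 12 cases (median 0.05). Those assigned to the middle did so in 6 of 8 (0.02) and those assigned to the tail in 3 of 6 (-0.0025).

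Med12, the kinase module subunit that activates its kinase, was the member with the smallest p. The CC arrays read 7.51, 7.21 and 7.36, the MSS arrays 7.45, 7.37 and 7.31, and the MSM arrays 7.40, 7.36 and 7.38. The SSS arrays read 7.04, 7.26 and 7.25, and the SSM arrays 6.80, 7.07 and 7.02. All severe arrays were below all mild arrays, and CC replicate 2 overlapped the SSS arrays. The difference was -0.30 (SE 0.063, adjusted p 0.0919), and without SSM replicate 3 it was -0.32 (adjusted p 0.132). Its paralog Med12l was at -0.14 (SE 0.070), Med13 at -0.06 (SE 0.062) and Med13l at 0.01 (SE 0.055), so Med12 stood well below the other 3 genes of the module.

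Among the genes assigned to the head, Med19 read 7.98, 7.83 and 7.92 on the MSS arrays and 7.99, 8.06 and 8.04 on the MSM arrays. It read 8.06, 8.08 and 7.998 on the SSS arrays and 8.10, 8.17 and 8.22 on the SSM arrays, against 7.95, 7.95 and 7.84 in CC. The SSM arrays were above all arrays of the other groups. The difference by severity was 0.14 (SE 0.042, adjusted p 0.228). Med27, at 0.17 (SE 0.057, adjusted p 0.267), and Med28, at 0.22 (SE 0.080, adjusted p 0.291), were the other genes assigned to the head with the smallest p-values on this side. In the middle, Med26, which helps recruit elongation factors, was at 0.21 (SE 0.072, adjusted p 0.287), with its highest value on SSM replicate 3 (7.08). Without that array it was at 0.14.

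Within the pups given morphine, SSM against MSM, the Kmt and Chd medians were again the lowest. The relative medians were -0.27 for Kmt, with 8 of 8 genes below the median of all genes, -0.22 for Chd, -0.11 for Setd, -0.08 for Kdm, -0.06 for Hdac, 0.0095 for Smarc and 0.03 for Med. Without SSM replicate 3 they were -0.19, -0.14, -0.07, -0.03, -0.0082, 0.05 and 0.06. This comparison is one of the 2 that severe against mild stress averages, so the 2 share arrays and neither supports the other. At an unadjusted p under 0.05, 13 members were lower against 2.26% of all genes, and 12 were higher against 12.1%. Among genes with a mean of at least 6, 12 members were lower against 3.14% of such genes, and 12 were higher against 17.1%. Over all genes and without SSM replicate 3, 9 were lower against 4.36% and 5 higher against 5.63%. Groups did not overlap for 14 lower members against 2.54% of all genes, and for 14 higher ones against 11.6%. These numbers were, without SSM replicate 3, 16 against 11.2% and 14 against 12.1%. Med12 had -0.41 (SE 0.089), Chd9 -0.27 (SE 0.059), Kmt2a -0.40 (SE 0.111), Chd6 -0.30 (SE 0.083) and Chd2 -0.29 (SE 0.080). With SSM replicate 3 left out these were -0.44, -0.29, -0.38, -0.26 and -0.24. Higher were Med26 with 0.40 (SE 0.102; 0.26 without SSM replicate 3), Smarcb1 with 0.23 (SE 0.061; 0.20), Med27 with 0.29 (SE 0.081; 0.29), Med6 with 0.18 (SE 0.059; 0.12) and Chd1l with 0.29 (SE 0.102; 0.22), the second value again without it. With all arrays their adjusted p-values were 0.156 to 0.262.

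**Figure D4:**
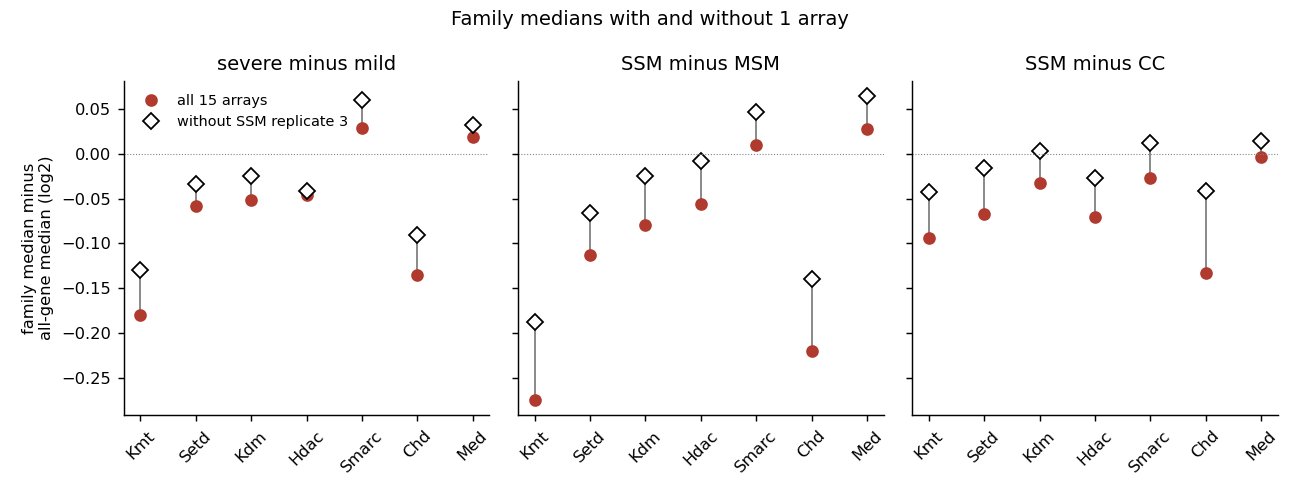
Median of each family relative to all genes (y axis, log2) in 3 comparisons, with all 15 arrays (circles) and without SSM replicate 3 (diamonds). In SSM minus CC the Chd median goes from -0.13 to -0.04 and the Kmt median from -0.09 to -0.04.

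Within the pups given saline, SSS against MSS, 4 members were lower at an unadjusted p under 0.05 against 1.57% of all genes, and 2 were higher against 1.28%. Hdac8 was at -0.19 (SE 0.073), Kmt2b at -0.18 (SE 0.072), Med12 at -0.19 (SE 0.089), Hdac7 at -0.17 (SE 0.076), Med19 at 0.14 (SE 0.059) and Hdac2 at 0.17 (SE 0.075). Every adjusted p of a member was 1.00 when rounded. The relative medians were -0.08 for Kmt, -0.05 for Chd, -0.05 for Hdac, -0.03 for Kdm, -0.0025 for Setd, 0.02 for Smarc and -0.01 for Med.

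Morphine was compared with saline within each stress level. In MSM against MSS, 1 member was lower (0.988% of all genes) and 1 higher (1.58%) at an unadjusted p under 0.05: Med26 at -0.26 (SE 0.102) and Kdm4d, a demethylase of lysine 9 of histone H3, at 0.23 (SE 0.086). In SSM against SSS, 5 were lower against 0.662% and 6 higher against 8.71%. Higher were Med31 (0.27, SE 0.070), Med6 (0.22, SE 0.059), Chd1l (0.34, SE 0.102), Med21 (0.24, SE 0.080) and Smarcal1 (0.13, SE 0.051). Lower were Chd5, a neuronal remodeller (-0.27, SE 0.096), Med12 (-0.22, SE 0.089), Kmt2a (-0.26, SE 0.111), Kmt2d (-0.25, SE 0.109) and Smarca4 (-0.14, SE 0.063). The smallest adjusted p was 0.494. Leaving out SSM replicate 3 gave 4 lower against 2.86% and 4 higher against 4.32%. The 5 higher genes then had 0.21, 0.16, 0.28, 0.15 and 0.10, and the 5 lower ones -0.29, -0.25, -0.24, -0.15 and -0.10, in the same order. The Kmt median was -0.12 (-0.14 without SSM replicate 3) and the Chd median -0.15 (-0.05 without it).

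Averaged over both stress levels, morphine against saline gave 2 lower members (0.597% of all genes) and 8 higher ones (7.04%). Kdm4d was at 0.20 (SE 0.061), Smarca5, an ISWI ATPase, at 0.22 (SE 0.076), and Chd5 at -0.21 (SE 0.068), with a smallest adjusted p of 0.649. When SSM replicate 3 was left out, they were at 0.17, 0.18 and -0.22, and 4 members were lower against 2.93% and 6 higher against 4.93%. The interaction, which is the morphine difference under severe minus that under mild stress, gave 1 lower member (0.386%) and 5 higher ones (3.26%). Chd1l was at 0.41 (SE 0.144), Med21 at 0.30 (SE 0.113), Med26 at 0.38 (SE 0.145), Med31 at 0.25 (SE 0.098) and Chd6 at -0.28 (SE 0.117), each with an adjusted p of 0.959. Without SSM replicate 3 they were at 0.35, 0.21, 0.24, 0.19 and -0.23, and 0 members were lower against 1.73% and 4 higher against 1.74%. A difference in the effect of morphine between stress levels was therefore not called for any member.

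Against the untreated controls, the mild groups had higher Kmt and Chd medians and the SSM group lower ones. The Kmt median relative to all genes was 0.09 for MSS, 0.10 for MSM, 0.06 for SSS and -0.09 for SSM (-0.04 without SSM replicate 3). The Chd median was 0.06, 0.07, 0.0018 and -0.13 (-0.04 without it) in the same order. In MSS against CC, 1 member was lower (1.16% of all genes) and 2 higher (1.06%): Hdac2 at -0.18 (SE 0.075), Kmt2c at 0.35 (SE 0.118) and Kdm7a at 0.19 (SE 0.076). In MSM against CC, 1 was lower (1.18%) and 7 were higher (1.58%). Chd2 was at 0.28 (SE 0.080), Kdm4d at 0.28 (SE 0.086), Chd6 at 0.23 (SE 0.083), Kmt2c at 0.30 (SE 0.118), Chd9 at 0.14 (SE 0.059) and Med26 at -0.27 (SE 0.102).

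In SSS against CC, 2 members were lower (1.09%) and 2 higher (0.933%): Hdac1 at -0.14 (SE 0.056), Kmt5c at -0.15 (SE 0.065), Kdm7a at 0.19 (SE 0.076) and Med19 at 0.13 (SE 0.059). In SSM against CC, 4 were lower (1.08%) and 8 higher (7.93%). Med12 was at -0.40 (SE 0.089), Hdac7 at -0.24 (SE 0.076), Kmt5c at -0.20 (SE 0.065), Kmt2b at -0.16 (SE 0.072), Med19 at 0.25 (SE 0.059) and Kdm4d at 0.24 (SE 0.086). The smallest adjusted p was 0.529 here and 1.00 when rounded in the other 3 comparisons. These 6 genes, without SSM replicate 3, were at -0.42, -0.32, -0.20, -0.20, 0.22 and 0.18 in SSM against CC. The lower members then numbered 6 against 2.81% of all genes, and the higher ones 1 against 3.14%. In MSM against CC the higher members numbered 14 without CC replicate 1 (2.23% of all genes) and 2 without CC replicate 3 (0.802%). In MSS against CC they numbered 7 (1.60%) and 1 (0.682%). The 4 comparisons with CC share its 3 arrays, and CC replicate 1 was the highest of them for Kmt2a, Kmt2b, Kmt2c and Kmt2d.

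For partners of these proteins outside the symbol rule, list medians were within 0.07 of the median of all genes in severe against mild stress, and 0 of their genes passed the threshold. Their counts at an unadjusted p under 0.05 stand against 2.80% of all genes lower and 9.28% higher. COMPASS partners, which hold Kmt2 enzymes together, had a relative median of 0.00064 (13 measured, 1 lower and 5 higher at an unadjusted p under 0.05). Dpy30 was at 0.13 (SE 0.042) and Pagr1a at -0.21 (SE 0.071). BAF and PBAF subunits without a Smarc symbol were at 0.02 (21 measured, 0 lower and 4 higher), with Bcl7b at 0.16 (SE 0.040), Dpf1 at 0.22 (SE 0.067) and Actl6a at 0.16 (SE 0.058). Mediator partners, namely its kinases, cohesin and RNA polymerase II, were at -0.0049 (19 measured, 0 lower and 2 higher). Other remodellers were at -0.05 (20 measured, 2 lower and 2 higher), among them Baz2a at -0.20 (SE 0.049). Polycomb genes were at -0.02 (28 measured), histone acetyltransferases and bromodomain readers at -0.03 (19), sirtuins at -0.06 (7), DNA methylation genes at 0.0037 (14), other histone methyltransferases at -0.04 (15) and corepressor partners of the deacetylases at -0.0066 (18).

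RNAs listed as staying in the nucleus, in full or in part, had lower values after severe stress, though 0 of them passed the threshold (smallest adjusted p 0.063). Where in the cell the RNA read here lay was not measured. Of 13 measured, 13 lay below the median of all genes, with a relative median of -0.48. At an unadjusted p under 0.05, 12 of them were lower, against 2.80% of all genes. Clk1 was at -0.59 (SE 0.101), Arglu1 at -0.35 (SE 0.061) and Clk4 at -0.45 (SE 0.082). The mean level of the list was 9.27 to 9.43 on the MSS arrays, 9.32 to 9.46 in MSM, 8.61 to 9.21 in SSS and 8.85 to 8.93 in SSM, against 9.12 to 9.41 in CC. Their part in the lower values of the Kmt and Chd genes was not tested. Choroid plexus markers had mean levels of 5.64 to 5.69 on MSS replicates 1 and 2 and SSS replicate 2, and 6.79 to 7.80 on the other arrays. Striatum markers reached 9.93 on SSM replicate 1, 8.57 on CC replicate 1 and 8.02 on MSM replicate 2. Myelinating oligodendrocyte markers reached 7.75 on SSM replicate 1 and 7.52 on MSM replicate 3, which also had the highest thalamus level (8.13). The part of these lists in the results was not tested, and values without SSM replicate 1 and MSM replicate 3 stand with the alternatives. Glutamatergic neuron markers had mean levels of 9.38 to 9.48 in MSS, 8.48 to 9.51 in MSM, 9.47 to 9.56 in SSS and 8.87 to 9.51 in SSM, and astrocyte markers 9.18 to 9.28, 9.08 to 9.45, 9.10 to 9.19 and 9.14 to 9.26. Interneuron markers (9 of 9 measured) had 8.66 to 8.94 in SSM, above the 8.54 to 8.59 of MSM and the 8.47 to 8.51 of SSS. The MSS arrays had 8.47 to 8.61 and the CC arrays 8.54 to 8.78, which overlaps SSM. The 8.94 was on SSM replicate 1. Relative to all genes, the median of these markers was 0.04 to 0.23 in SSM and -0.20 to -0.003 in MSM, which do not overlap. CC replicate 1, at 0.15, lay within the SSM range. The part of this list in the SSM results was not tested. Microglia markers (8 of 8 measured), relative to all genes, were at 0.26, 0.01 and -0.05 in SSM, which overlaps the -0.04 to -0.01 of MSM.

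Members with a longer gene tended to have lower values after severe stress. Across the 100 members, the genomic span (from 1.81 kb to 870 kb, RefSeq, GRCm38.p6) and the difference had a Pearson r of -0.33 on log2 span and a Spearman rho of -0.32. Without SSM replicate 3 these were -0.29 and -0.27. Across all 19919 genes with a span they were 0.019 and -0.0063, and across the 10587 of them with a mean of at least 6 they were -0.081 and -0.14. Within families the Spearman rho was -0.84 for the 10 Chd genes, -0.34 for the 30 Med genes and between -0.26 and 0.018 for the others. These are correlations across genes on the same arrays, and genes are not independent replicates.

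**Figure D5:**
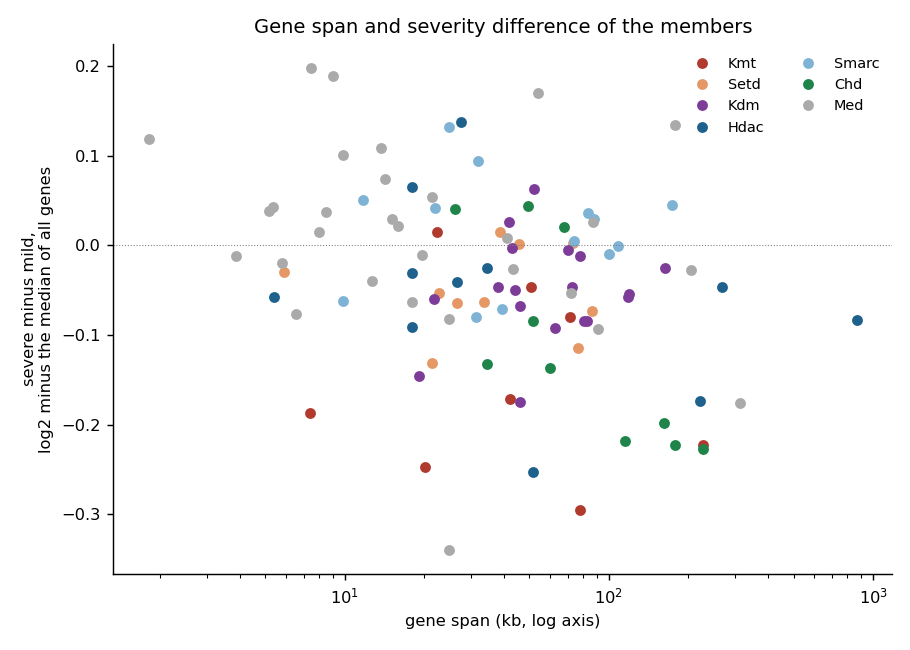
Genomic span of each of the 100 members (x axis, kb, log axis) against its severe minus mild difference relative to all genes (y axis, log2), coloured by family. The lowest point is Med12 (-0.34), and the Chd genes run downwards with span (Spearman rho -0.84 over 10 genes).

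Several members were read by more than 1 probe set. Of the 11 such genes, Kdm7a and Setd1b had probe sets of opposite sign in severe against mild stress (0.03 and -0.03 for Kdm7a), and the other 9 had 1 sign. The kept probe set of Chd6 was at -0.16 and its second, much dimmer one at -0.02.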

How the data were processed

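Total RNA of the right hippocampus was read on 15 Affymetrix Mouse Gene 1.0 ST arrays. The deposited table holds log2 intensities, made with RMA (background correction, quantile normalization and summary of probes) per the submitters' processing notes; no software version is stated. The number of arrays limits the precision.

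Of 35557 probe sets, 21789 carried 1 gene symbol in the platform annotation, and the brightest per gene gave 19938 genes. The fit used lmFit and eBayes of limma 3.58.1 (R 4.3.3), 1 mean for each group (10 residual and 4.61 prior degrees of freedom, two-sided, Benjamini-Hochberg over all genes). The fit was tested on simulated data. Groups came from the treatment labels. The members, lists, motifs and alternatives were chosen with earlier results of these data known. Named were, per comparison, members past the threshold or else the 5 smallest p-values on each side of 0, and per family the 2 brightest, 2 dimmest and 2 smallest F-test p-values; of related lists, up to 3 genes by p. The text adds some members outside this rule, chosen after their values were seen. A planned comparison with protein length was replaced by gene span, since protein lengths were not used here.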

Additional observations from a re-analysis of the deposited data

How the results depend on the processing

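No member passed the threshold in any comparison under any alternative run. The 110 pairs of a named gene and a comparison kept their direction in 2614 of 2614 alternative values, with a lowest adjusted p of 0.0513 (limma). This was partly fixed in advance, so it does not measure stability. The genes were named for small p-values in these data, and several alternatives leave a difference unchanged, such as leaving out an array of another group. Counts of members at an unadjusted p under 0.05 and small family medians changed between alternatives. Values under the alternatives follow those with all arrays, in brackets, and the cause was not tested. The bordering-tissue arrays are SSM replicate 1 and MSM replicate 3, and shifted arrays had the median deviation of their genes subtracted. CC replicate 1 and MSM replicate 2, which also had raised striatum markers, were kept when both bordering-tissue arrays were left out. Percentages are the share of all genes under the same setting, which often moved with the members' count. Not every value that changed is listed. In MSS against CC the lower count (1, 1.16%) was 2 with quantile normalization (1.93%), only both groups fitted (2.26%) and shifted arrays (1.71%) and 5 with centred arrays (2.73%). In MSS against CC the higher count (2, 1.06%) was 1 with centred arrays (0.828%). In MSM against CC the lower count (1, 1.18%) was 2 with quantile normalization (2.51%) and both bordering-tissue arrays left out (1.18%). In MSM against CC the higher count (7, 1.58%) was 2 with centred arrays (0.752%), 4 with only both groups fitted (1.59%) and both bordering-tissue arrays left out (2.03%) and 3 with the replicate block (1.11%). In MSM against CC the Setd median (0.00354) was 0.0587 with both bordering-tissue arrays left out. In MSM against CC the Hdac median (0.0178) was -0.0442 with both bordering-tissue arrays left out. In SSS against CC the lower count (2, 1.09%) was 4 with quantile normalization (1.26%) and shifted arrays (1.68%) and 0 with centred arrays (0.813%). In SSM against CC the lower count (4, 1.08%) was 10 with quantile normalization (2.69%) and 9 with shifted arrays (3.34%). In SSM against CC the higher count (8, 7.93%) was 4 with quantile normalization (4.82%), 5 with centred arrays (7.27%) and 3 with only both groups fitted (3.84%) and shifted arrays (2.95%). In MSM against MSS the lower count (1, 0.988%) was 2 with quantile normalization (2.01%) and only both groups fitted (1.13%). In MSM against MSS the higher count (1, 1.58%) was 0 with the filter on dim genes (2.1%) and 2 with both bordering-tissue arrays left out (1.42%) and shifted arrays (1.85%). In SSM against SSS the lower count (5, 0.662%) was 9 with quantile normalization (3.22%) and shifted arrays (3.21%) and 3 with both bordering-tissue arrays left out (0.306%). In SSM against SSS the higher count (6, 8.71%) was 10 with both bordering-tissue arrays left out (11.6%). In SSM against SSS the Hdac median (-0.00349) was -0.0338 with the mean of probe sets and -0.0409 with both bordering-tissue arrays left out. In SSM against SSS the Smarc median (0.0415) was -0.0524 with both bordering-tissue arrays left out. In SSS against MSS the lower count (4, 1.57%) was 7 with quantile normalization (1.73%), 0 with centred arrays (0.808%) and 2 with the SS number as a random block (1.16%). In SSS against MSS the higher count (2, 1.28%) was 1 with quantile normalization (2.99%) and the SS number as a random block (0.998%). In SSS against MSS the Hdac median (-0.047) was -0.078 with quantile normalization. The lower count in SSM against MSM (13, 2.26%) was 18 with quantile normalization (4.26%) and 9 with centred arrays (1.79%). It was 19 with shifted arrays (5.87%). In SSM against MSM the higher count (12, 12.1%) was 5 with only both groups fitted (4.97%) and 6 with shifted arrays (5.62%). In SSM against MSM the Hdac median (-0.0556) was -0.0919 with the mean of probe sets. In SSM against MSM the Med median (0.0277) was -0.0184 with both bordering-tissue arrays left out. In morphine against saline the lower count (2, 0.597%) was 6 with quantile normalization (3.26%), 1 with both bordering-tissue arrays left out (0.206%) and 4 with shifted arrays (2.85%). In morphine against saline the Hdac median (-0.00337) was -0.0415 with both bordering-tissue arrays left out. In severe against mild stress the lower count (12, 2.80%) was 21 with quantile normalization (4.08%). It was 8 with centred arrays (1.77%) and 15 with shifted arrays (5.57%). In severe against mild stress the higher count (9, 9.28%) was 15 with centred arrays (21.7%). In severe against mild stress the Med median (0.0185) was -0.00435 with quantile normalization and -0.00857 with both bordering-tissue arrays left out. In the interaction the lower count (1, 0.386%) was 3 with quantile normalization (1.69%), both bordering-tissue arrays left out (0.351%) and shifted arrays (1.79%) and 0 with centred arrays (0.813%) and the mean of probe sets (0.366%). In the interaction the higher count (5, 3.26%) was 3 with both bordering-tissue arrays left out (4.93%). In the interaction the Hdac median (-0.0408) was 0.00427 with both bordering-tissue arrays left out. In the interaction the Med median (0.0259) was -5.72e-05 with both bordering-tissue arrays left out. In severe against mild stress the number of members with all severe arrays below all mild ones (5, 0.411% of all genes) was 0 with centred arrays (0.145% of all genes). In severe against mild stress the number of members with all severe arrays above all mild ones (0, 0.687% of all genes) was 2 with centred arrays (2.35% of all genes) and 1 with both bordering-tissue arrays left out (1.86% of all genes).

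With each array left out in turn, these values ranged as follows (for counts, with the share of all genes at a setting that gave each end), and the cause was not tested. Over MSS against CC the range was 0 (0.772%) to 3 (1.98%) for the lower count, 1 (0.682%) to 7 (1.6%) for the higher count and -0.0162 to 0.0488 for the Hdac median. Over MSM against CC the range was 0 (0.727%) to 2 (1.82%) for the lower count, 2 (0.802%) to 14 (2.23%) for the higher count, -0.0194 to 0.0587 for the Setd median, -0.0442 to 0.0387 for the Hdac median and -0.058 to -0.0156 for the Med median. Over SSS against CC the range was 0 (0.607%) to 3 (1.26%) for the lower count, 1 (0.562%) to 4 (1.4%) for the higher count, -0.0687 to -0.0123 for the Hdac median, -0.0387 to 0.087 for the Chd median and -0.0263 to 0.00324 for the Med median. Over SSM against CC the range was 3 (0.632%) to 7 (0.843%) for the lower count, 1 (3.14%) to 12 (13.9%) for the higher count, -0.18 to -0.0223 for the Kmt median, -0.139 to -0.0162 for the Setd median, -0.0976 to -0.0273 for the Hdac median, -0.201 to -0.0419 for the Chd median and -0.0311 to 0.0138 for the Med median. Over MSM against MSS the range was 0 (0.873%) to 2 (2.63%) for the lower count, 0 (2.7%) to 4 (2.98%) for the higher count, -0.0357 to 0.0241 for the Hdac median and -0.0287 to 0.0122 for the Med median. Over SSM against SSS the range was 2 (0.818%) to 5 (0.667%) for the lower count, 4 (4.32%) to 14 (15.1%) for the higher count, -0.126 to -0.0176 for the Setd median, -0.0691 to 0.0117 for the Kdm median, -0.0409 to 0.028 for the Hdac median, -0.0524 to 0.0418 for the Smarc median and -0.194 to -0.0548 for the Chd median. Over SSS against MSS the range was 0 (1.2%) to 4 (1.66%) for the lower count, 0 (0.928%) to 3 (1.22%) for the higher count and -0.0202 to 0.00998 for the Med median. Over SSM against MSM the range was 5 (5.63%) to 13 (11.1%) for the higher count, -0.294 to -0.188 for the Kmt median, -0.0989 to -0.0252 for the Kdm median, -0.0972 to -0.00819 for the Hdac median, -0.0321 to 0.0467 for the Smarc median and 0.00262 to 0.0639 for the Med median. Over morphine against saline the range was 1 (0.587%) to 4 (2.93%) for the lower count and -0.0415 to 0.0205 for the Hdac median. The lower count in SSM against MSM ranged from 9 (4.36%) to 17 (2.23%). Over severe against mild stress the range was 10 (2.48%) to 15 (2.8%) for the lower count and -0.0134 to 0.0592 for the Smarc median. The number of members with all severe arrays above all mild ones can only stay or rise when an array is left out. Over the interaction the range was 0 (0.481%) to 3 (0.532%) for the lower count, 2 (2%) to 6 (3.42%) for the higher count, -0.0625 to 0.0138 for the Kdm median, -0.0818 to 0.0207 for the Hdac median, -0.0526 to 0.0603 for the Smarc median and -0.0127 to 0.0435 for the Med median.

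The H numbers that MSM and CC share did not pair their arrays: the correlation of same-numbered deviations was -0.391, -0.0688 and -0.164. On these 6 arrays the replicate block gave 0 called genes, 1 lower and 3 higher members, against 1 and 4 without it. The SS number as a random block had a correlation of 0.065. The shifted arrays, and all alternatives to the count of members whose severe and mild arrays do not overlap, were added after seeing the data. With 3 arrays a group, the median SE of a member was 0.0753 between 2 groups, which limits the precision of every difference above.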
